A study of Mus musculus with 16 samples.

Results

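The collagen genes of the mouse were followed across macrophages of 3 serous cavities and of the heart. A gene was counted as a collagen when its symbol in the deposited expression table was Col, a type number, the letter a and a chain number, and 44 of 24981 genes met that rule. Relatives whose symbols do not have that form, such as Colec12, Colgalt1 and Colq, were not counted. Macrophages had been sorted by flow cytometry straight into TRIzol from lavage fluid of the pericardial, pleural and peritoneal cavities and from the heart of C57BL/6 mice aged 8 weeks, at baseline, with 4 libraries per group. The labels give no genotype or treatment beyond the strain, do not name the sorting gate, and do not say whether libraries of a group came from separate or pooled animals, so p-values measure the spread between these libraries. Heart macrophages came out of a solid tissue and cavity macrophages out of fluid, so the population and the way it was harvested cannot be told apart in any comparison with the heart.

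Collagens are chains that wind in threes into a stiff triple helix. Fibrillar collagens assemble into the ropes that carry load, fibril-associated collagens decorate those ropes, and the type IV chains build the sheet of basement membranes. Type VI makes beaded filaments around cells, short-chain collagens form nets in vessel walls, the multiplexins XV and XVIII sit in basement membranes and release antiangiogenic fragments, and a few collagens stay in the plasma membrane. In the heart, fibroblasts are known as the main makers of types I and III, while macrophages are known chiefly for taking collagen up and breaking it down.

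The libraries held 40886702 to 70166356 alignments each. Levels are given as RPKM, read counts divided by transcript length and library size, which allows levels of different genes to be compared per length. The steps between low values put 1 read on a transcript of 5 kb at 0.004 to 0.00634 RPKM, so levels below 0.1 RPKM rest on few reads, at most about 42.8 for any collagen whose reads could be estimated. The sort was checked with Adgre1, Lyz2 and Gata6, the last a regulator of cavity macrophages. Adgre1 was 387 to 681 RPKM in cavity libraries and 154 to 248 in heart libraries, Lyz2 was 18640 to 40600 against 3720 to 6961, and Gata6 was 28.8 to 51.8 against 0.381 to 1.58. These 3 do not stand for all macrophage genes. Of 9 macrophage markers, 2 were higher and 5 lower in heart than in pericardial libraries, by the test over all genes described below. There 14.5% of all genes were higher and 25.7% lower. The higher markers were Fcgr1 and Csf1r, at log2 folds of 2.18 and 0.98, and Cd68 and Mertk were not called. Transcripts of other heart cells were also present in the heart libraries. The summed RPKM of 12 cardiomyocyte markers was 295 to 620 there and 3.11 to 5.37 in the cavities. That of 12 endothelial markers was 7.64 to 21.5 against 0.751 to 1.45, and that of 11 mural markers 7.39 to 22.2 against 0.997 to 2.12. By the same test 11 cardiomyocyte markers were higher in heart than in pericardial libraries, and Ryr2 was lower at a log2 fold of -1.43. The sum of 10 mesothelial markers was 0.33 to 2.15 RPKM in the hearts and 1.53 to 3.21 in the cavities. Whether cells other than macrophages add to the collagen signal of cavity libraries was not tested. Heart replicate 2 stood apart from the other 3 heart libraries in collagens and fibroblast markers, so the folds and counts of collagens between heart and cavity libraries are also given without it.

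The family was close to silent in cavity libraries apart from a small set of genes, and much of it was present in heart libraries. The summed RPKM of all 44 genes ran from 6.75 in a peritoneal to 13.9 in a pericardial library over the 12 cavity libraries. In heart libraries it was 168 in replicate 2 and 50.3, 53.0 and 56.2 in replicates 3 to 5. The hearts lay above all the cavities. Pericardial libraries, at 9.12 or more, and pleural ones overlapped, and the 4 peritoneal libraries, at 9.04 or less, lay just below both. In bulk samples fewer cells of a type and less RNA per cell cannot be told apart, here and in every comparison that follows. Collagens were a tiny part of the transcriptome throughout, at 0.00189% to 0.00325% of all RPKM in cavity libraries and 0.0167% to 0.0739% in heart libraries.

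**Figure D1:**
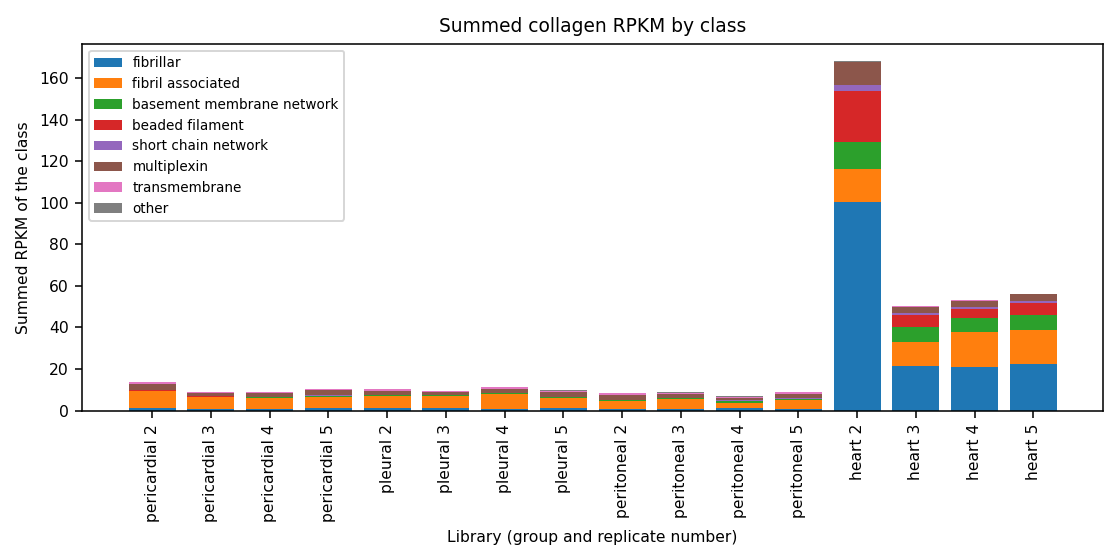
Summed RPKM of the collagen genes in each of the 16 libraries, stacked by structural class. Heart replicate 2 reaches 168 RPKM, the other heart libraries 50.3 to 56.2, and the 12 cavity libraries 6.75 to 13.9, where the fibril-associated class, mostly Col16a1, makes the largest share.

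No collagen was listed at 0 in all 16 libraries. For 13 genes the level stayed below 0.1 RPKM in all of them, and these are called silent here: Col10a1, Col11a1, Col13a1, Col17a1, Col19a1, Col22a1, Col24a1, Col25a1, Col26a1, Col28a1, Col6a4, Col6a5 and Col9a2. They include the growth-plate collagen Col10a1 and the hemidesmosome collagen Col17a1 of skin. A further 13 genes peaked between 0.1 and 1 RPKM, and 18 reached 1 RPKM in at least 1 library. Of those 18, a heart library reached 1 RPKM for 16 genes and a cavity library for 3, which were Col16a1, Col18a1 and Col23a1.

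**Figure D2:**
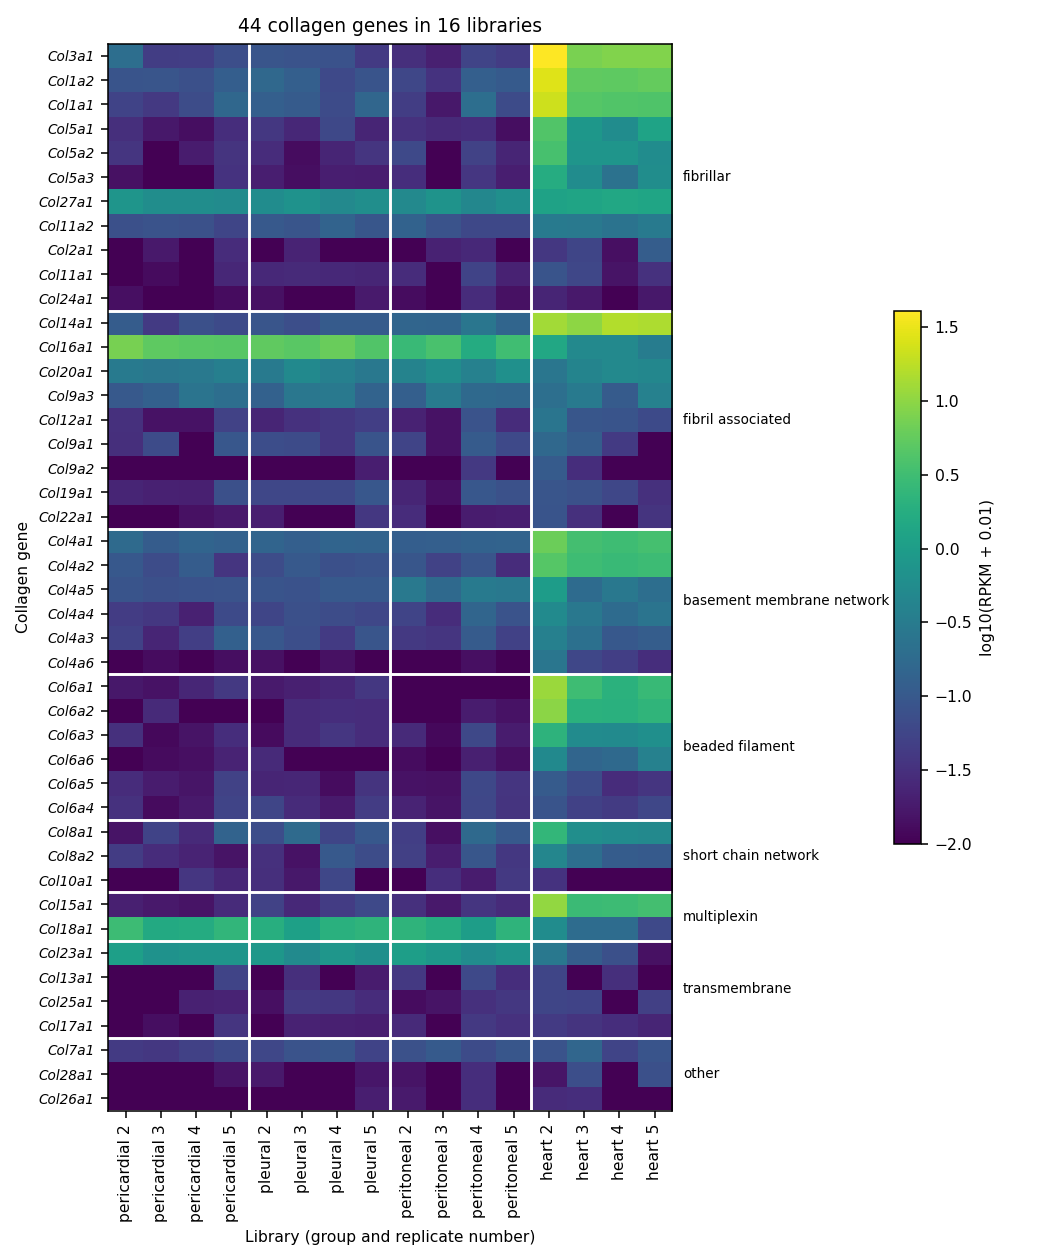
Level of all 44 collagen genes, as log10(RPKM + 0.01), in rows grouped by structural class and columns by library. The 4 heart columns are bright for types I, III, IV, VI, XIV and XV, and the 12 cavity columns are brighter than the heart for Col16a1, Col18a1 and Col23a1.

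For 20 collagens all 4 heart libraries were above all 12 cavity libraries, a pattern that 7.96% of all genes in the table showed. For 3 collagens all heart libraries were below all cavity libraries, against 13.2% of all genes. Differences were tested with limma on log2(RPKM + 0.5), fitted to every gene that varied, with Benjamini-Hochberg adjustment over 23594 genes and a call at an adjusted p below 0.05. Heart libraries were called higher than pericardial ones for 22 of 44 collagens, where 14.5% of genes were called higher, and lower for 3, where 25.7% were called lower. Against pleural libraries 23 were higher (12.7% of genes) and 3 lower (22.6% of genes), and against peritoneal libraries 21 were higher (12.8% of genes) and 3 lower (23.2% of genes). The median log2 fold of the 44 collagens was 0.23, 0.21 and 0.20 in the 3 comparisons, beside 0.01, 0.00 and 0.00 over all genes in the fit. Against all 3 cavities at once 21 collagens were higher (10.3% of genes) and 3 lower (18.4% of genes). Without heart replicate 2 the higher counts against pericardial, pleural and peritoneal libraries were 25, 24 and 23 (13.4%, 12.5% and 12.4% of genes), with 3 lower against each (22.5%, 19.3% and 19.7% of genes). Against all 3 at once 20 were then higher (10.1% of genes) and 3 lower (14.9% of genes). Col4a6 and Col28a1 were newly called higher against each cavity and Col2a1 against pericardial libraries, while Col4a3 was no longer called against pleural ones. The new calls rest on low values. In heart replicates 3 to 5 Col28a1, listed above as silent, was 0.0640, 0 and 0.0666 RPKM. Col4a6 was 0.0489, 0.0363 and 0.0193 there, and Col2a1 0.0475, 0.00427 and 0.105.

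A stricter fit used the 11234 genes that reached 1 RPKM in at least 4 libraries. It held 12 collagens. Of these, 10 passed that filter through the heart libraries alone and Col18a1 through the cavity libraries alone, so they had to differ, and their calls in it are a description. Col16a1 passed through all 12 cavity libraries and reached 1 RPKM in 1 heart library. The fit over all genes, which has no such filter, also called each of the 12 against each cavity. In the stricter fit 10 collagens were higher and 2 lower against all 3 cavities at once, where 11.6% of genes were higher and 41.0% lower. The counts were also 10 and 2 against each cavity, where 14.7%, 13.9% and 14.1% of genes were higher and 53.8%, 47.8% and 48.8% lower against pericardial, pleural and peritoneal libraries, and they stayed 10 and 2 without heart replicate 2. Folds and adjusted p-values given below are from this fit unless stated. For the 10 collagens that passed through the heart libraries alone, adjusted p-values are instead from the fit over all genes without heart replicate 2. The size of a fold on this scale understates the change of genes near 0. For Col3a1, for instance, the log2 fold against pericardial libraries was 4.48 with 0.5 added to each RPKM and 6.17 with 0.1.

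Among the fibrillar collagens, types I and III were the chief chains of the heart libraries. Col3a1 encodes the type III chain of distensible tissues such as vessel walls and myocardium. Its level was 40.9 RPKM in heart replicate 2 and 7.76, 8.48 and 8.58 in replicates 3 to 5. In pericardial replicates 2 to 5 it was 0.192, 0.0357, 0.0361 and 0.0646, in pleural ones 0.0797, 0.0745, 0.0705 and 0.0308, and in peritoneal ones 0.0211, 0.0111, 0.0443 and 0.0333. The heart libraries lay far above the rest, and the cavity values amounted to about 3 to 37 reads a library, against about 1589 to 9137 in the heart. The log2 fold over pericardial libraries was 4.48 ± 0.34 (SE, n = 4 and 4). Without heart replicate 2 it was 3.92 (limma adjusted p = 2.8e-12 in the fit over all genes). The 250 bases before its annotated start, shown because Col3a1 was the highest collagen measured in any library, hold a TATAAA box, in capitals, and neither a CCAAT box nor a GC box (GGGCGG), looked for on both strands (chr1:45311288-45311537, plus strand).
Col3a1: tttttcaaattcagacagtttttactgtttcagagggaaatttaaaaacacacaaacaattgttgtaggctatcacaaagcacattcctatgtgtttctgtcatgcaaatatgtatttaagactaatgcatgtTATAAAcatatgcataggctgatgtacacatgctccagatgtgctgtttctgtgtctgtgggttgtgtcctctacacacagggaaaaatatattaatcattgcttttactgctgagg

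The start itself is at base 45311538 of chromosome 1 in GRCm38.p6, and the sequences here are RefSeq's. The TATAAA run begins at position -117 from it, and 12.4% of 32851 promoters in the same table hold TATAAA or its reverse complement in the same stretch. RefSeq promoters were available for 35 of the 44 collagens, 38 stretches in all, of which 13.2% held TATAAA, 34.2% CCAAT and 57.9% GGGCGG. Over all promoters the last 2 were 33.8% and 32.7%. A match of letters is a description and not a site.

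Col1a1 and Col1a2 encode the type I chains, the commonest collagen of tendon, bone and scar. Col1a1 was 21.5 RPKM in heart replicate 2 and 4.56, 4.32 and 4.16 in the others. In pericardial replicates 2 to 5 it was 0.0438, 0.0302, 0.0581 and 0.149, in pleural ones 0.112, 0.0993, 0.0560 and 0.144, and in peritoneal ones 0.0357, 0.00691, 0.189 and 0.0574. Heart and cavity libraries did not overlap, and the 3 cavities did. Col1a2 was 27.0 RPKM in heart replicate 2 and 5.31, 5.11 and 5.79 in the others, and its cavity values again lay far below. Col1a2 was 0.0773, 0.0800, 0.0660 and 0.110 RPKM in pericardial replicates 2 to 5, in pleural ones 0.158, 0.113, 0.0520 and 0.0765, and in peritoneal ones 0.0495, 0.0236, 0.115 and 0.0948. The log2 folds over pericardial libraries were 3.64 ± 0.34 for Col1a1 and 3.89 ± 0.34 for Col1a2 (SE). Without heart replicate 2 they were 3.09 and 3.34 (limma adjusted p = 6.8e-11 and 4.5e-12 in the fit over all genes). The ratio of Col1a1 to Col1a2 RPKM was 0.719 to 0.857 in the 4 heart libraries, a narrow range beside the spread of either chain. In cavity libraries, where few reads carry it, that ratio ran from 0.294 to 1.89.

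The minor fibrillar chains were at lower levels, and Col5a1, Col5a2, Col27a1, Col11a2 and Col2a1 were picked after their values were seen. Col5a1 and Col5a2, type V chains that seed type I fibrils, were 4.23 and 3.68 RPKM in heart replicate 2, 0.553 to 1.22 and 0.565 to 0.753 in the other heart libraries, and at most 0.0503 and 0.0533 in any cavity library. In the fit over all genes the log2 fold of Col5a1 over pericardial libraries was 1.83 ± 0.32 (SE, limma adjusted p = 0.00032), and 1.37 without heart replicate 2. Col27a1, a fibrillar collagen best known from cartilage, was the one chain of this class that cavity libraries held at a steady level. It was 0.459 to 0.748 RPKM over the 12 cavity libraries, which overlapped between cavities, and 1.19 to 1.44 in the hearts. Heart libraries lay above all the others by a log2 fold of 0.70 ± 0.14 over pericardial ones (SE). The fold was 0.73 without replicate 2, the lowest of the 4 hearts (limma adjusted p = 0.00019 in the fit over all genes). Col11a2 was 0.229 to 0.302 RPKM in the heart and 0.0472 to 0.132 in the cavities, while Col2a1, the cartilage collagen, stayed at or below 0.105.

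**Figure D3:**
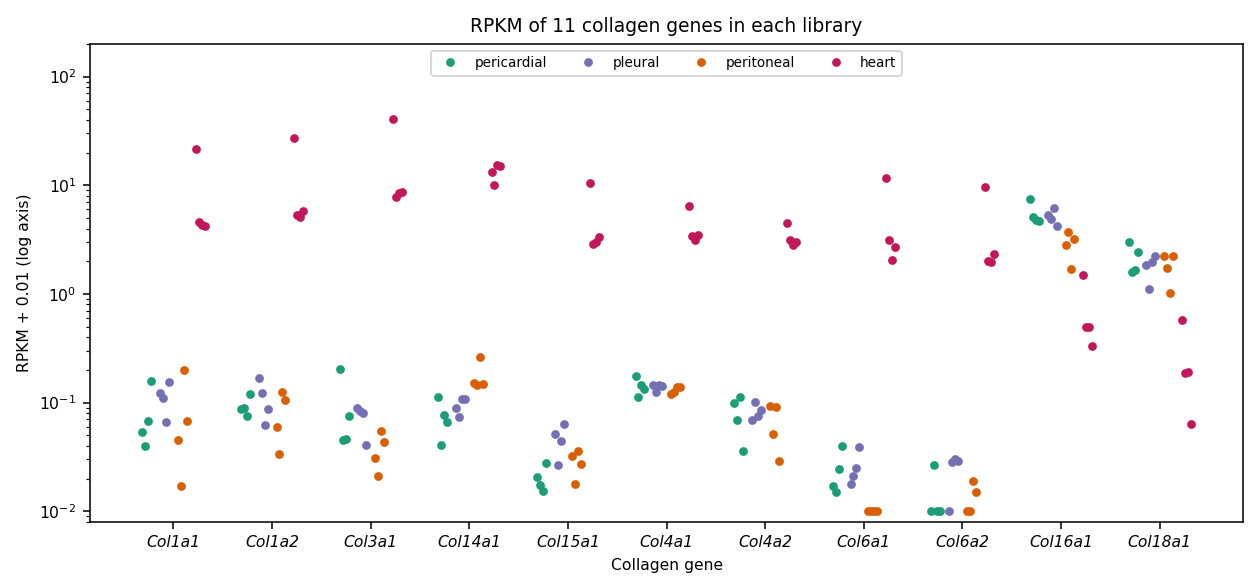
RPKM + 0.01 on a log axis for 11 collagen genes, 1 point per library, coloured by group. Heart points are above all cavity points for 9 genes and below them for Col16a1 and Col18a1, and 1 heart point, replicate 2, is well above the other 3 for most genes but not for Col14a1.

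The fibril-associated collagens split in opposite directions. Col14a1 encodes type XIV, which lies on type I fibrils and binds decorin. It was 13.1, 10.1, 15.5 and 14.9 RPKM in heart replicates 2 to 5. In pericardial replicates 2 to 5 it was 0.103, 0.0308, 0.0668 and 0.0557, in pleural ones 0.0786, 0.0643, 0.0983 and 0.0974, and in peritoneal ones 0.142, 0.137, 0.255 and 0.139. The hearts did not overlap the cavities, and all 4 peritoneal libraries were above all pericardial and pleural ones. The log2 fold was 4.61 ± 0.14 over pericardial, 4.55 ± 0.14 over pleural and 4.37 ± 0.14 over peritoneal libraries (SE). Leaving out heart replicate 2 gave 4.61, 4.56 and 4.37 (limma adjusted p = 1.2e-11, 1.4e-11 and 1.8e-11 in the fit over all genes). Col14a1 had the highest RPKM of the family in heart replicates 3, 4 and 5, with 20.1%, 29.2% and 26.6% of summed collagen RPKM, and Col3a1 was second in each. In heart replicate 2 the leading collagen was Col3a1 with 24.4%, and the ratio of Col3a1 to Col14a1 was 3.12 there against 0.547 to 0.769 in the other hearts.

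Col16a1 was the leading collagen of the cavity libraries. It encodes type XVI, a fibril-associated collagen. Its level was 7.49, 5.15, 4.79 and 4.72 RPKM in pericardial replicates 2 to 5, 5.36, 4.88, 6.20 and 4.23 in pleural ones, 2.80, 3.74, 1.67 and 3.16 in peritoneal ones, and 1.47, 0.484, 0.489 and 0.320 in heart ones. All 12 cavity libraries were above all hearts, and all pericardial and pleural libraries were above all peritoneal ones. These values rest on about 317 to 1352 reads in each cavity library and about 65 to 307 in each heart library. Heart libraries were lower by log2 folds of -2.41 ± 0.24, -2.33 ± 0.24 and -1.54 ± 0.24 against pericardial, pleural and peritoneal libraries (SE, limma adjusted p = 5.3e-08, 8.8e-08 and 2.0e-05). Without heart replicate 2, in which Col16a1 was the highest of the 4 hearts, the folds were -2.68, -2.60 and -1.81. Col16a1 made 24.8% to 56.4% of summed collagen RPKM in the 12 cavity libraries and came first in each. Its upstream stretch is shown because it was the main collagen signal outside the heart (chr4:130047590-130047839, plus strand, GRCm38.p6); the capitals mark a GC box at -159 and a CCAAT box at -113 from the start.
Col16a1: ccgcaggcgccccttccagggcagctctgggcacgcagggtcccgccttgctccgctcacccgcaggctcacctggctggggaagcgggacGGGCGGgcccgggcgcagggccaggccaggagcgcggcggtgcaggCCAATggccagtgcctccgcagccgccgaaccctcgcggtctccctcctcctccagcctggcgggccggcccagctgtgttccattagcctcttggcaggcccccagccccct

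The other fibril-associated genes were low in all groups, and those named were picked after their values were seen. Col20a1 was 0.256 to 0.642 RPKM in cavity and 0.250 to 0.487 in heart libraries, which overlapped, and it was not called in any comparison. Col9a3 was at most 0.310 in cavity and 0.378 in heart libraries, and Col12a1 peaked at 0.242 in heart replicate 2.

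The type IV chains of basement membranes were led by the common pair. Col4a1 was 6.40 RPKM in heart replicate 2 and 3.37, 3.09 and 3.47 in the others, far above its cavity values. Col4a1 was 0.165, 0.102, 0.134 and 0.123 RPKM in pericardial replicates 2 to 5, in pleural ones 0.134, 0.115, 0.137 and 0.133, and in peritoneal ones 0.110, 0.114, 0.128 and 0.131. Col4a2, its partner in the same trimer, was 4.50 RPKM in heart replicate 2, 3.12, 2.81 and 3.02 in the others. Col4a2 was 0.0895, 0.0586, 0.102 and 0.0260 RPKM in pericardial replicates 2 to 5, in pleural ones 0.0589, 0.0913, 0.0655 and 0.0752, and in peritoneal ones 0.0838, 0.0413, 0.0806 and 0.0192. Hearts and cavities were far apart for both, and the cavities overlapped. The log2 folds over pericardial libraries were 2.81 ± 0.17 and 2.75 ± 0.15 (SE). Without heart replicate 2 they were 2.59 and 2.61 (limma adjusted p = 3.3e-12 and 5.5e-12 in the fit over all genes). The ratio of Col4a1 to Col4a2 RPKM was 1.08 to 1.42 over the 4 hearts. The genes lie head to head on chromosome 8, and their annotated 5′ ends overlap, so that reads from that stretch cannot be assigned to 1 of them without strand information, whose use the sources used here do not give. Of the 4 rarer chains, Col4a4 and Col4a6, picked after their values were seen, reached 0.173 to 0.529 and 0.0193 to 0.251 RPKM in the hearts, with no overlap with the cavities.

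Type VI, whose chains make the beaded filaments around cells, was nearly absent from the cavities. Col6a1 was 11.8 RPKM in heart replicate 2 and 3.11, 2.05 and 2.71 in the others. It was 0.00726, 0.00500, 0.0144 and 0.0301 in pericardial and 0.00796, 0.0110, 0.0152 and 0.0287 in pleural replicates 2 to 5, which is about 1 to 5 reads, and it was listed at 0 in all 4 peritoneal libraries. Col6a2 was 9.66 RPKM in heart replicate 2 and 2.01, 1.96 and 2.33 in the others. Col6a2 was 0, 0.0165, 0 and 0 RPKM in pericardial replicates 2 to 5, in pleural ones 0, 0.0181, 0.0201 and 0.0190, and in peritoneal ones 0, 0, 0.00910 and 0.00514. The cavities overlapped near 0. The log2 folds of Col6a1 and Col6a2 over pericardial libraries were 3.09 ± 0.31 and 2.86 ± 0.30 (SE). Without heart replicate 2 they were 2.59 and 2.36 (limma adjusted p = 4.5e-11 and 1.2e-12 in the fit over all genes). Col6a3, the third chain of the classical trimer and picked after its values were seen, was 2.19 RPKM in heart replicate 2, 0.530 to 0.624 in the other hearts and at most 0.0505 in the cavities. Col6a6 was 0.138 to 0.507 RPKM in the hearts, and Col6a4 and Col6a5 were silent.

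The 2 multiplexins moved in opposite directions. Col15a1, which lies at the outer face of basement membranes in muscle and capillaries, was 10.5 RPKM in heart replicate 2 and 2.89, 2.96 and 3.36 in the others. In pericardial replicates 2 to 5 Col15a1 was 0.0108, 0.00748, 0.00540 and 0.0180 RPKM, in pleural ones 0.0417, 0.0164, 0.0340 and 0.0537, and in peritoneal ones 0.0221, 0.00771, 0.0257 and 0.0174. All hearts were far above, and every cavity value was near 0. Its log2 fold over pericardial libraries was 3.21 ± 0.26 (SE). Without heart replicate 2 it was 2.81 (limma adjusted p = 6.6e-13 in the fit over all genes). Col18a1, the source of the fragment endostatin, had the opposite pattern. It was 2.98, 1.58, 1.65 and 2.40 RPKM in pericardial replicates 2 to 5, 1.84, 1.10, 1.95 and 2.21 in pleural ones, 2.22, 1.73, 1.01 and 2.23 in peritoneal ones, and 0.564, 0.178, 0.182 and 0.0531 in heart ones. The 3 cavities overlapped and all hearts were below them. Heart libraries were lower by log2 folds of -1.84 ± 0.26, -1.63 ± 0.26 and -1.63 ± 0.26 against pericardial, pleural and peritoneal libraries in the fit over all genes (SE, limma adjusted p = 4.9e-05, 0.00016 and 0.00015). Without heart replicate 2 the folds were -2.03, -1.82 and -1.82. It was the second collagen in each of the 12 cavity libraries.

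Col18a1 has an upstream and a downstream start on the minus strand of chromosome 10, and the authors' deposited table lists a transcript for each. For the transcript with the upstream start, the mean log2 RPKM in the authors' deposited table was 1.31 for the pericardial, 1.05 for the pleural, 1.02 for the peritoneal and -1.72 for the heart group. For the transcript with the downstream start the authors' deposited table gives -2.98 in hearts and -3.28, -3.28 and -3.08 in the cavities, close to the lowest value it can hold. The cavity signal was thus assigned to the upstream transcript. The 250 bases before each start are shown for comparison (chr10:77166531-77166780 and chr10:77113706-77113955, minus strand, GRCm38.p6), with CCAAT and GC boxes on either strand in capitals.
Col18a1 upstream start: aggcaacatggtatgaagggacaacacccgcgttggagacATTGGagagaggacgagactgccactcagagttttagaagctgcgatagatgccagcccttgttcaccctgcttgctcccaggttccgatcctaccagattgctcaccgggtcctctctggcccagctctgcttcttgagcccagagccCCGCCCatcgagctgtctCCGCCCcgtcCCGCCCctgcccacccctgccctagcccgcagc
Col18a1 downstream start: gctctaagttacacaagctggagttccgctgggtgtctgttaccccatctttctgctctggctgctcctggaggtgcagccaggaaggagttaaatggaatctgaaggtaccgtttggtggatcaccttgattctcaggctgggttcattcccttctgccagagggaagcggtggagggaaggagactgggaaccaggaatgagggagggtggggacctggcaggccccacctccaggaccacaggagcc
The upstream stretch holds 3 GC boxes and, at -210 from the start, a CCAAT box, all on the opposite strand, and the downstream stretch holds none of the motifs.

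Among the membrane-bound collagens, Col23a1 was the only gene above 0.1 RPKM in any library. It is described although its means fell below the level used to choose genes, and was picked after its values were seen. Its level was 0.685 to 1.10 RPKM in pericardial, 0.527 to 0.805 in pleural and 0.565 to 1.06 in peritoneal libraries, and 0.273, 0.105, 0.0658 and 0.00452 in heart replicates 2 to 5. All hearts were below all cavity libraries, and the cavities overlapped. In the fit over all genes the log2 fold against pericardial libraries was -1.12 ± 0.15 (SE, limma adjusted p = 3.9e-05), and -1.24 without heart replicate 2. Of the short-chain collagens, Col8a1, a chain of vessel walls picked likewise, was 2.47 RPKM in heart replicate 2, 0.498 to 0.604 in the other hearts and 0.00401 to 0.168 in the cavities. Col7a1, the anchoring fibril collagen of skin, was 0.0281 to 0.144 RPKM and not called.

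Between cavities, limma called none of the collagens in either fit. In the pericardial against pleural comparison 0.00890% of genes were called in each direction in the stricter fit. In the pericardial against peritoneal comparison 0.525% were higher and 0.427% lower, and in the pleural against peritoneal one 0.214% and 0.374%. In the fit over all genes these shares were 0% and 0%, 0.136% and 0.165%, and 0.0593% and 0.140%. At an unadjusted p below 0.05 the stricter fit had Col16a1 alone, in both comparisons with the peritoneal cavity, and 0 collagens between pericardial and pleural libraries. The fit over all genes added Col20a1 and Col7a1 in the pericardial against peritoneal comparison. The log2 fold of Col16a1 was 0.87 ± 0.24 for pericardial over peritoneal and 0.79 ± 0.24 for pleural over peritoneal libraries (SE, limma adjusted p = 0.12 and 0.20). Without heart replicate 2, which enters the shared estimate of spread, the adjusted p for pericardial over peritoneal was 0.030, and over all alternatives it ran up to 0.40, the value without pericardial replicate 2. Its group means were 5.54 ± 1.31, 5.17 ± 0.83 and 2.84 ± 0.87 RPKM (SD, n = 4 each).

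Taken by overlap alone, all 4 pericardial libraries were above all 4 peritoneal ones for 2 collagens, Col16a1 and Col6a1, where 1.19% of genes showed that pattern. All peritoneal libraries were above all pericardial ones for 4, Col14a1, Col20a1, Col4a5 and Col7a1, against 1.69% of genes. Pleural libraries were all above peritoneal ones for Col16a1 and Col6a1 (1.27% of genes) and all below for Col14a1 and Col4a5 (1.47% of genes), and Col11a2 alone was higher in all pleural than in all pericardial libraries (1.16% of genes). The reverse held for 0 collagens (0.761% of genes). Most of these values are small. Col4a5, a basement membrane chain named here after its values were seen, was 0.0756, 0.0674, 0.0708 and 0.0738 RPKM in pericardial, 0.0780, 0.0706, 0.0930 and 0.0924 in pleural, and 0.275, 0.161, 0.299 and 0.272 in peritoneal replicates 2 to 5. The 4 peritoneal libraries stood apart from the other cavities, but the limma adjusted p over all genes was 0.87 and 0.86 against pericardial and pleural libraries. Without heart replicate 2, whose Col4a5 was 0.987 RPKM and which enters the shared estimate of spread, it was 0.0099 and 0.023.

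**Figure D4:**
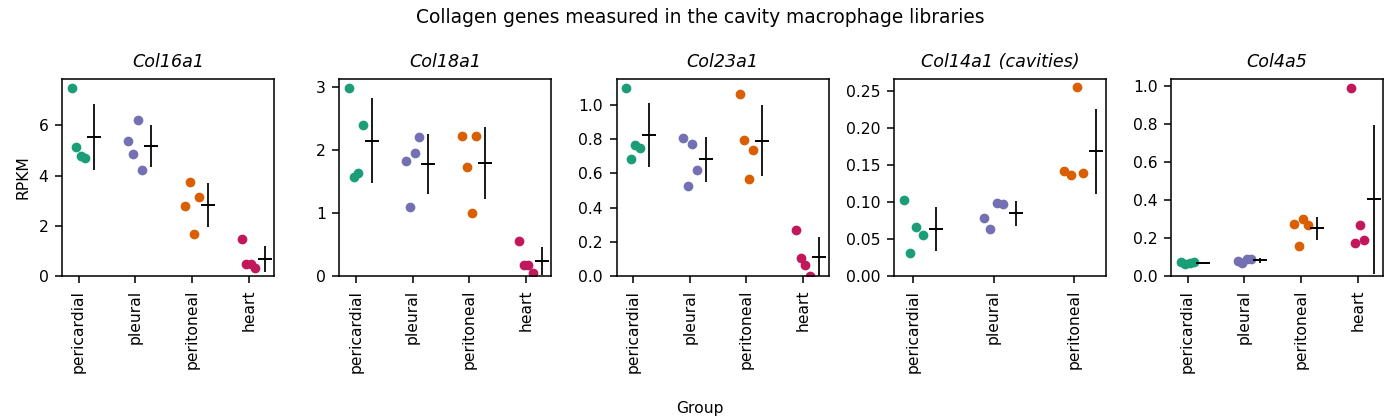
RPKM of 5 collagen genes by group, 1 point per library, with the group mean and SD as a bar beside the points (Col14a1 without the hearts, which reach 15.5). Pericardial and pleural points lie above peritoneal ones for Col16a1 and below them for Col14a1 and Col4a5, and hearts are lowest for Col16a1, Col18a1 and Col23a1.

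Heart replicate 2 differed from the other hearts in most collagens, but not in all. Of 31 collagens that reached 0.1 RPKM in a heart library, 24 were highest in replicate 2. Its level over the median of replicates 3 to 5 was 4.83 for Col3a1, 4.97 for Col1a1, 5.07 for Col1a2, 4.34 for Col6a1, 4.81 for Col6a2 and 3.54 for Col15a1. It was 1.90 for Col4a1 and 1.49 for Col4a2, but 3.41, 2.25, 5.21 and 6.92 for the rarer type IV chains Col4a3, Col4a4, Col4a5 and Col4a6. It was 0.879 for Col14a1 and 0.913 for Col27a1. Thus types I, III and XV, Col6a1 and Col6a2 stood at more than 3 times the other hearts in that library, the common type IV pair at less than 2 times, and Col14a1 and Col27a1 at less than 1. Over the 10570 genes with a mean of at least 1 RPKM in replicates 3 to 5, the same ratio had a median of 0.833 and a 95th percentile of 1.57. It was at least 3 for 1.14% of those genes and for 6 of the 10 collagens among them.

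The fibroblast markers moved with those collagens. Of 17 fibroblast markers at that level, all outside the family, 16 had a ratio of at least 3, with a range of 2.21 to 9.79 and a median of 4.56. The summed RPKM of the 20 fibroblast markers was 431 in heart replicate 2, 95.1, 106 and 120 in the other hearts, 44.1 to 63.5 in pericardial, 41.4 to 71.2 in pleural and 46.7 to 65.8 in peritoneal libraries. In the cavities that sum was mostly Pi16 and Htra3, which were both lower in heart than in pericardial libraries in the fit over all genes, where 17 of the 20 markers were higher, beside 14.5% of genes. The counts were the same without heart replicate 2. No marker of the list was at 0 in all cavity libraries. The defining marker Dcn was 146 RPKM in heart replicate 2, 34.7 to 49.9 in the other hearts and at most 0.274 in any cavity library, and Pdgfra was 2.12, 0.614 to 0.762 and at most 0.0431. The 8 macrophage markers at that level had ratios of 0.646 to 0.865. The 10 cardiomyocyte markers had ratios of 0.862 to 3.88 with a median of 1.16, and 1 of them was at least 3. On summed RPKM the excess in replicate 2 was not limited to fibroblast markers. There the same ratio was 4.06 for fibroblast, 4.46 for mesothelial, 2.79 for endothelial and 2.40 for mural markers. Gene by gene, the 2 endothelial markers at that level had ratios of 1.67 and 2.21 and the 2 mural ones 1.31 and 1.36, so 0 of them reached 3. The Schwann cell sum had a ratio of 1.31, but at 11.4 RPKM in replicate 2 it was below the 13.25 of replicate 3 and within the cavity range of 7.33 to 14.3. The mesothelial sum was small, at 2.15 RPKM in replicate 2 and at most 0.559 in the other hearts. Whether fibroblast RNA accounts for any of the collagen signal in heart libraries was not tested.

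**Figure D5:**
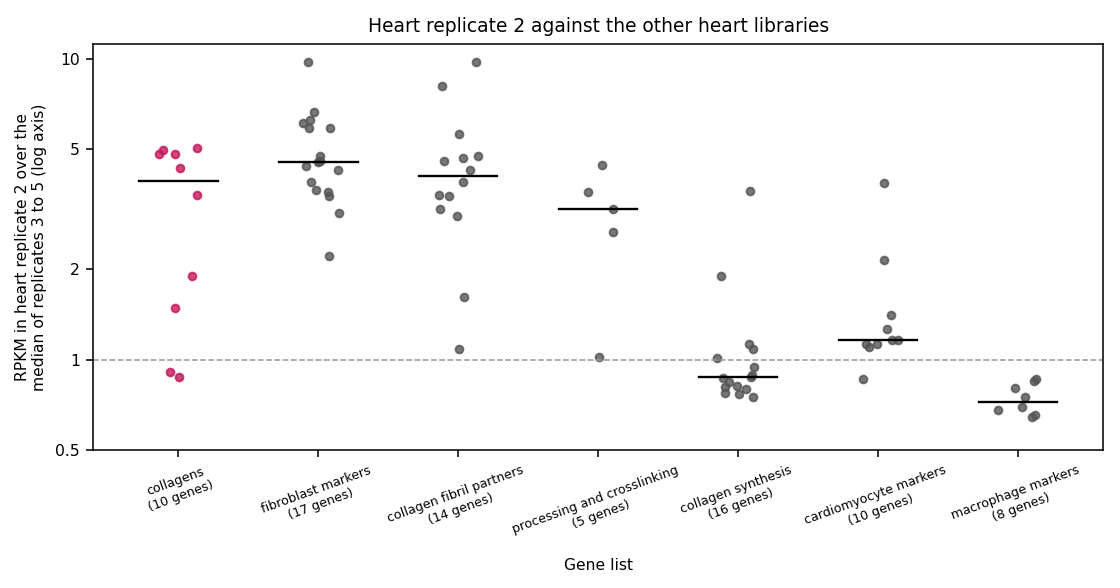
RPKM in heart replicate 2 over the median of heart replicates 3 to 5, on a log axis, for genes with a mean of at least 1 RPKM in those 3 libraries, with the median of each list as a line. Collagens spread from 0.879 to 5.07, fibroblast markers from 2.21 to 9.79, and macrophage markers from 0.646 to 0.865.

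Genes that act on collagen were followed beside the family, on lists chosen with these data known. Their counts are from the fit over all genes, in which 14.5% of genes were higher and 25.7% lower in heart than in pericardial libraries and the median log2 fold was 0.01. All 17 fibril and basement membrane partners were higher, with a median log2 fold of 1.99, and without heart replicate 2 all 17 were higher with a median of 1.48. They were led by Dcn, which spaces type I fibrils, at 6.49, Bgn, its close relative, at 5.24, Dpt at 4.74 and Sparc, a collagen-binding matrix protein, at 4.34, or 6.04, 4.69, 4.31 and 3.82 without that library. Of 14 such partners with a mean of at least 1 RPKM in heart replicates 3 to 5, 12 had a ratio of at least 3 in replicate 2. These are not separate from the fibroblast markers, because Dcn, Bgn, Lum, Dpt and Postn are on both lists. Loxl1, Ddr2 and Cthrc1 are likewise both fibroblast markers and members of a list below.

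Of 23 genes of the machinery that makes collagen inside the cell, 6 were higher and 12 lower in heart than in pericardial libraries, with a median log2 fold of -0.55, and 6 and 11 without heart replicate 2. In the stricter fit, where 14.7% of genes were higher and 53.8% lower, 3 of the 18 that entered were higher and 12 lower. With each scaling the split moved to more higher and fewer lower genes, and the median over all genes moved too. The median log2 fold of those 18 was -0.85, beside -0.45 over all genes in that fit. With scaling it was -0.36 beside 0.00 (median-ratio), -0.47 beside -0.13 (quantile) and -0.24 beside 0.12 (equal RPKM total). The largest falls were those of Crtap, needed for proline hydroxylation, at -2.63, and Plod3, a lysyl hydroxylase, at -2.54. Crtap was 46.2 to 75.3 RPKM in cavity libraries where types I and III were near 0, and 7.58 to 12.4 in the hearts. Of the higher genes, P3h2 was at 4.76, Serpinh1, the collagen chaperone, at 3.46, and P3h3, named after its value was seen, at 1.73, or 4.85, 3.02 and 1.55 without heart replicate 2. P3h2, a prolyl hydroxylase that acts on type IV, was 10.9, 13.1, 15.9 and 13.5 RPKM in heart replicates 2 to 5 and at most 0.0637 in any cavity library, and like Col14a1 it was not raised in replicate 2. Serpinh1 was 17.3 RPKM in that library and 3.79 to 5.90 in the other hearts.

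Of 13 genes for processing and crosslinking, 9 were higher and 0 lower in heart than in pericardial libraries, and 6 higher and 1 lower (Bmp1, a procollagen protease, at -0.79) without heart replicate 2. The higher genes were led by Pcolce, which speeds the trimming of procollagen, at 4.10 on the log2 scale, and by the crosslinking enzymes Loxl1 and Loxl3 at 2.72 and 1.57, or 3.77, 2.30 and 1.57 without that library. Pcolce2, a relative of Pcolce, was at 1.42 and at 0.99 without that library. It was then no longer called in the fit over all genes (limma adjusted p = 0.070). In the stricter fit, where 14.7% of genes were higher, 4 of the 6 genes that entered were higher and 0 lower. Without that library these counts were 4 and 1. Of the 6, 3 passed its filter through heart libraries alone. Of 12 collagen receptors, 8 were higher and 2 lower with and without it. Mrc1, a macrophage receptor that takes up collagen, was 226 to 358 RPKM in the hearts and 1.74 to 10.6 in the cavities. Its log2 fold over pericardial libraries was 5.22 (limma adjusted p = 3.3e-08 in the fit over all genes). Lair1, an inhibitory collagen receptor, was higher by 2.60, and Itgb1, the shared chain of collagen-binding integrins, was lower at -2.01.

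Macrophages also make proteins with a collagen-like stretch that lie outside the family. Of 24 such genes, 4 were higher and 5 lower in heart than in pericardial libraries, beside 14.5% and 25.7% of genes, and 6 and 5 without heart replicate 2. The scavenger receptor Marco was 41.6 to 280 RPKM in cavity libraries, with a log2 fold of -5.11 for hearts over pericardial libraries. Emilin2 was 472 to 822 against 21.2 to 25.4, and Fcna, a lectin of the complement pathway, was 418 to 1002 against 62.3 to 84.4. Emilin1, a relative of Emilin2, fell by 3.41 on the log2 scale. The complement chain C1qa, named after its values were seen, was 1261 to 2764 RPKM in cavity and 1555 to 2621 in heart libraries and was not called. The summed RPKM of these 24 genes was 5117 to 10080 in cavity and 4172 to 6955 in heart libraries, far above that of the 44 collagens in any library.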

How the data were processed

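RNA of sorted macrophages was prepared with the NEBNext Ultra II RNA kit, per the labels. Per the submitters' processing notes, bcl2fastq 2.17.1, TopHat2 2.1.1 and Partek 7.18.0723 were used with mm10. RPKM values per gene were deposited by the authors, made from reads mapped with TopHat and computed in Partek, per the file headers; the read total, the annotation, strand handling and the treatment of multiply mapped reads are not stated in any source used. The deposited mean values are log2 RPKM per transcript and group, and the deposited ratio columns give the authors' fold over pericardial libraries and were not used for results. The deposited count of alignments per library gave the depth.

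Here, log2(RPKM + 0.5) of all 16 libraries entered limma 3.58.1 (R 4.3.3) with 1 mean per group, a trended variance and 12 residual degrees of freedom, two-sided. It was fitted to 11234 genes with at least 1 RPKM in at least 4 libraries, and again to the 23594 genes that varied. The fit to 11234 genes was tried on data simulated from those genes, and the fit to 23594 genes was not. The collagens and all lists were chosen with earlier results of these data known. Values in every library are given for Col1a1, Col3a1, the 10 collagens with the highest group mean, those highest in a cavity with a mean of at least 1 RPKM, and any called between cavities; from other lists, up to 4 called genes with the largest fold. The labels do not say what a replicate number marks. Deviations from the group means correlated at 0.194 to 0.630 between same-numbered pericardial and pleural libraries, over 0.1 in all 4 pairs, so these were also fitted as pairs; in no other 2 groups did all 4 pairs exceed 0.1. Alternatives changed the added constant, the filter, the scaling and the libraries used.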

Additional observations from a re-analysis of the deposited data

Results flagged for a closer look

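In the 11 collagens whose values are given library by library, a library was picked out when its gap to the nearest of the other 3 was a larger part of the range of its group than Dixon's 95% critical value for 4 samples. Chance picks about 1 in 20 groups, and 44 groups were looked at, with 13 picked. Heart replicate 2 was picked as the highest heart library for 8 of the 11 genes, at 21.5 RPKM for Col1a1 (next highest 4.56), 40.9 for Col3a1 (8.58), 27.0 for Col1a2 (5.79), 1.47 for Col16a1 (0.489), 10.5 for Col15a1 (3.36), 11.8 for Col6a1 (3.11), 6.40 for Col4a1 (3.47) and 9.66 for Col6a2 (2.33). In the cavities, peritoneal replicate 4 was high for Col14a1 at 0.255 RPKM (next 0.142) and pericardial replicate 2 for Col16a1 at 7.49 (5.15). Pleural replicate 3 was low for Col4a1 at 0.115 RPKM (next 0.133). For Col6a2, pericardial replicate 3 was high at 0.0165 RPKM where the other 3 are listed at 0, and pleural replicate 2 was low at 0 (next 0.0181).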

How the results depend on the processing

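Over all groups the deviations of same-numbered libraries correlated at a median of 0.195 (over 0.1 in 14 of 24 pairs) and those of other libraries at -0.017 (29 of 72), and 9 of 16 libraries correlated best with their own number. With the block in a fit of the pericardial and pleural libraries alone, 0 collagens were called by limma with and without the filter, at a lowest adjusted p of 0.53 and 0.57. That fit called 23 of 11234 genes with the filter and 0 of 22378 without it. With the replicate number as a block over all groups, 10 collagens were higher and 2 lower in heart than in pericardial libraries, as without it, and 22 were higher in the fit over all genes. Without the filter on low values, 22, 23 and 21 collagens were higher against pericardial, pleural and peritoneal libraries, and 21 against all 3, where the filtered fit had 10, because more collagens were tested. Leaving out single libraries, the count of collagens higher in pericardial than peritoneal libraries ran from 0 to 1, which was Col16a1 without heart replicate 2. In the fit over all genes the counts lower in pericardial and in pleural than in peritoneal libraries each ran from 0 to 1, which was Col4a5 without the same library. The other 594 counts stayed within 1.5 times, 1241 folds of the 12 collagens in the filtered fit and of Col5a1, Col5a2, Col6a3, Col8a1 and Col23a1 in the other kept direction and call, 1 passed the threshold anew (Col16a1, pericardial over peritoneal), and none of these reversed. Over all 44 collagens in the fit over all genes, leaving out heart replicate 2 added 3, 2 and 2 calls against pericardial, pleural and peritoneal libraries and removed 1 against pleural ones. Over all genes in the filtered fit the median log2 fold of heart over pericardial libraries was -0.45, against 0.00 with median-ratio scaling, 0.12 at an equal RPKM total and -0.13 after quantile normalization. Below about 0.1 RPKM depth limits what can be told apart.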
